A study of Mus musculus with 79 samples.

Results

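Neurofilaments and microtubule-associated proteins were represented by 10 genes: Nefl, Nefm, Nefh and Ina, which encode the neurofilament subunits, and Map1a, Map1b, Map2, Map4, Map6 and Mapt, which encode proteins that bind microtubules. They were found by gene symbol among the 38879 genes of the deposited table, and each symbol matched 1 row. The symbols were listed after measured values of these libraries, in both arms, had been seen. Levels in the control libraries are therefore given here as a description without a test. Tests are given for the stressed mice and for stress against control. The p-values between types in stressed mice come from values seen before the choice. They set a difference against its spread and are no independent support for it. Libraries of 130 cells each were cut by laser from frozen brain sections of male C57Bl/6J mice, in the medial prefrontal cortex. The cells were pyramidal neurons (PYR), which are excitatory, and 3 kinds of inhibitory interneuron, named after the parvalbumin (PV), the somatostatin (SST) or the vasoactive intestinal peptide (VIP) they make, and an RNA probe marked each type. The unstressed mice (control, 10 mice) lived in groups with littermates, and the mice under unpredictable chronic mild stress (UCMS, 10 mice) lived singly and met varied mild stressors such as restraint, wet bedding and predator odor for 5 weeks. Stress and single housing therefore cannot be told apart here, and both arms are wild-type mice, whose age is not given in the sources used here. Mouse U609 had no PV library, so UCMS PV neurons had n = 9 and each of the other 7 groups n = 10, or 79 libraries in all, with the 4 types taken from the same animals. Behaviour was tested in the last weeks of the stress period, per the labels, so stressed mice were also tested mice.

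Neurofilaments are the intermediate filaments of axons. The light chain (Nefl) forms their core, the medium (Nefm) and heavy (Nefh) chains carry long, heavily phosphorylated tails that project from it, and alpha-internexin (Ina) is a further subunit in central neurons. Filament number is known to set the calibre of large axons, and light chain released into blood or spinal fluid is used as a sign of axon damage. Among the proteins that bind microtubules, Map2 is the classic marker of dendrites and tau (Mapt) is enriched in axons. Map1a and Map1b are a related pair of which Map1b is the form of growing neurites and Map1a that of mature neurons. Map6 makes microtubules resistant to cold, and Map4 is made in neurons and in many other cells.

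The deposited values, here called normalized counts, are reads per gene after division by a scaling factor of the library. Reads on genes ran from 3642579 to 13529571 per library, and the 10 genes together took 0.411% to 0.703% of them. Each library type carried its own marker: in control mice Pvalb averaged 816 normalized counts in PV and 37.9 or less in the other types, Sst 12981 in SST and 260 or less elsewhere, and Vip 5104 in VIP and 35.7 or less elsewhere. Slc17a7, the vesicular glutamate transporter of pyramidal neurons, averaged 14218 in PYR libraries but also 4794 in VIP, 3262 in SST and 2819 in PV libraries, so interneuron libraries held RNA of that excitatory marker at 19.8% to 33.7% of the PYR level. Astrocyte and oligodendrocyte markers were also present in each type, and their values stand beside the results they moved with. In libraries of this kind, fewer cells of a type and less RNA per cell cannot be told apart.

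Some of these genes share sequence on the genome (GRCm38, GENCODE M21). Nefl lies at chr14:68083863-68089095 on the plus strand and Nefm at chr14:68082590-68124846 on the minus strand. The annotated exons of Nefm cover 1108 of the 3380 exon bases of Nefl on the opposite strand. Whether reads were counted by strand is not given in the sources used here, so the values of Nefl and Nefm are uncertain where they overlap. The same holds for 456 exon bases that Ina (chr19:47014698-47025327, plus strand) shares with Nt5c2, for 272 that Map1a (chr2:121289600-121310832, plus) shares with Ppip5k1 and for 124 that Map2 (chr1:66175273-66442583, plus) shares with the antisense gene Gm10558. Nefh (chr11:4938754-4948064, minus), Map1b (chr13:99421446-99516540, minus), Map4 (chr9:109931460-110083955, plus), Map6 (chr7:99267447-99337137, plus) and Mapt (chr11:104231390-104332090, plus) share no exon base with another annotated gene.

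RefSeq promoters (GRCm38.p6, from 250 bases before to 50 after a start) were matched for 5 of the 10 genes: Map2, Map1a, Map1b, Ina and Map4, the last with windows at each of 2 starts. The windows of Ina, Map1a and Map4 are shown because these genes were higher in PV neurons than in the other 3 types, and that of Map1b because it was nearly even across the types. Capitals mark the GC box, searched as GGGCGG on both strands with overlapping matches counted.
Ina, chr19:47014431-47014730, plus strand: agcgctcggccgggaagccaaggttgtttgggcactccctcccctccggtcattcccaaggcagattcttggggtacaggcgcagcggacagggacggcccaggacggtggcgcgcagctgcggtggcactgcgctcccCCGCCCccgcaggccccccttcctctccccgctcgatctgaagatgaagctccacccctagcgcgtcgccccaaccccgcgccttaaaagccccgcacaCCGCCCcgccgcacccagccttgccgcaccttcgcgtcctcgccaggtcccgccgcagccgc
Map1a, chr2:121289352-121289651, plus strand: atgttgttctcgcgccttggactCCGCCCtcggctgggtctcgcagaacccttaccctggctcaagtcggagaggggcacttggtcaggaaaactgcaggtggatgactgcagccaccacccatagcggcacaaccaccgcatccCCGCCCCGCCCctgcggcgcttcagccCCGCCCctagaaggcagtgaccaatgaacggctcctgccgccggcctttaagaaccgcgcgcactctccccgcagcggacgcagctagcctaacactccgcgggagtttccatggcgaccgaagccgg
Map4 upstream start, chr9:109931524-109931823, plus strand: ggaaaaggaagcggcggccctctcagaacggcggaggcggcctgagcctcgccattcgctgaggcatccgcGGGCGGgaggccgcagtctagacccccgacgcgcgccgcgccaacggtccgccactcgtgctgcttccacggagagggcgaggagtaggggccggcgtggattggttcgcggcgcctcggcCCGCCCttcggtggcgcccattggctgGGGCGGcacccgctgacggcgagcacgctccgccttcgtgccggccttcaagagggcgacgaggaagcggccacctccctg
Map4 downstream start, chr9:110051771-110052070, plus strand: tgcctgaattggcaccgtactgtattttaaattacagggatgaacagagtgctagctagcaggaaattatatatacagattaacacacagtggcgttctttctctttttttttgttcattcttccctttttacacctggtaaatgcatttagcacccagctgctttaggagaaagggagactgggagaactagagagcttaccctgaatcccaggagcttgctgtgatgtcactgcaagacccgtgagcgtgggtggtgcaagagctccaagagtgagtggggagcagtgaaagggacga
Map1b, chr13:99516553-99516852, minus strand: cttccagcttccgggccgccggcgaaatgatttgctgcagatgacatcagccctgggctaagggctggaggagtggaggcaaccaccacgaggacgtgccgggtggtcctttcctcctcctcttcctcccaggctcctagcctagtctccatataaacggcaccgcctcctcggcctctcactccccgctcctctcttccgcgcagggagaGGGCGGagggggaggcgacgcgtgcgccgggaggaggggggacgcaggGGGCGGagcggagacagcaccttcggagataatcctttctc
The GC box occurred 2 times in the window of Ina, 4 times in that of Map1a, 3 times at the upstream start of Map4 and 2 times in that of Map1b, and 0 times at the downstream start of Map4. The window of Map2, not printed, held 5. Of all 32851 RefSeq promoter windows, 35.7% held at least 1 GC box. The TATA box letters TATAAA, held by 13.6% of all windows, occurred once among these 6 windows, in that of Map1b. GC content was 71.7% for Ina, 65.7% for both Map1a and Map1b, 73.3% and 46.0% for the upstream and downstream starts of Map4 and 77.7% for Map2, against a median of 52.7% over all windows.

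Compared per kilobase of annotated exon over all 79 libraries, the microtubule-binding proteins made up the top 4 places. Map1b stood first with 1473 normalized counts per exon kilobase, followed by Map1a with 911, Map2 with 437 and Mapt with 338. Ina (224), Nefl (164), Map4 (126), Nefh (118), Map6 (100.2) and Nefm (92.6) followed. By the length of the longest coding transcript Map2 passed Map1a (1149 against 938 per kilobase) and Nefh came last with 118. Map1b stayed first, and the order below it depends on which length is used. Even Nefm, the lowest per exon kilobase, stood above 81.5% of 17382 genes ranked in the same way, and Map1b above 99.5%.

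The heavy chain Nefh set PV neurons most apart. In control mice the mean was 1327 ± 585 normalized counts in PV neurons (SD, n = 10). In the other types it was 254 ± 197 in SST, 197 ± 101 in PYR and 180 ± 143 in VIP neurons. In PV control libraries the lowest, median and highest values were 523, 1262 and 2401, and in PYR control libraries 26.0, 204 and 338, with no overlap. The corresponding values were 0, 220 and 563 in SST and 46.4, 127 and 436 in VIP control libraries, so only the SST range reached into that of PV. In UCMS mice PV libraries again stood alone, at 540, 972 and 2296 (n = 9), above every PYR (6.82, 252 and 467), SST (30.9, 234 and 495) and VIP library (0, 104 and 431), with 2 VIP libraries at 0. Within mice, Nefh was higher in PV than in each of the other 3 types in all 9 UCMS mice with a PV library.

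**Figure D1:**
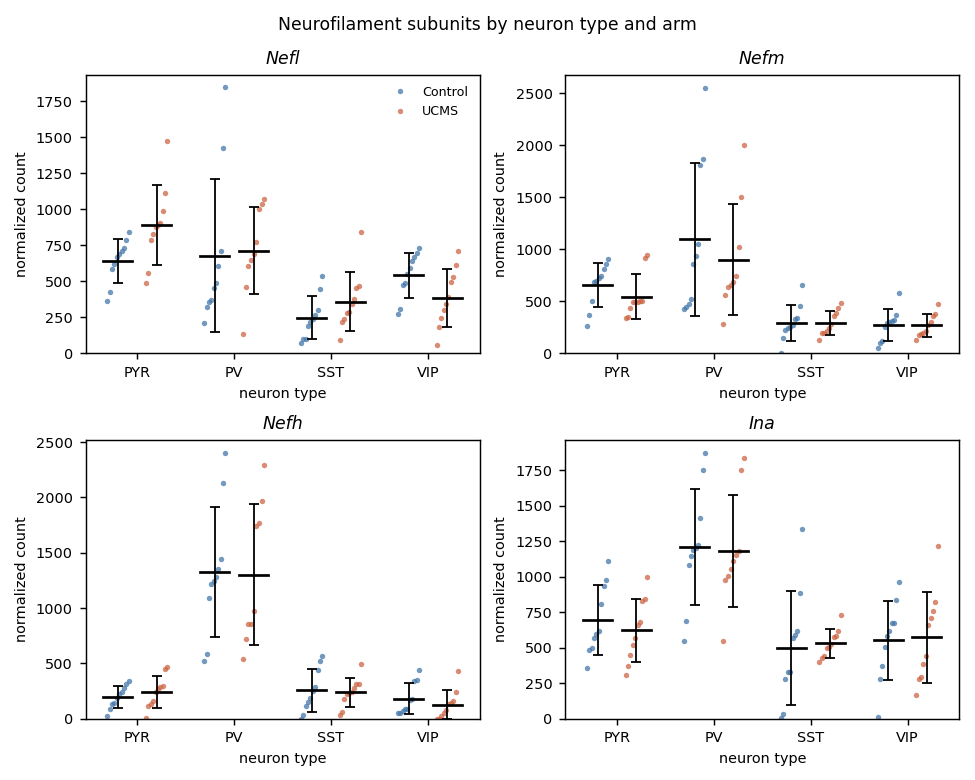
Normalized counts of the 4 neurofilament subunits (vertical axis, linear, from 0) by neuron type (horizontal axis), 1 point per library, control in blue and UCMS in red, with the mean (bar) and SD (whiskers, cut at 0). Nefh in PV libraries lies between 523 and 2401 in control and between 540 and 2296 in UCMS mice, while the highest value in any other group is 563.

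In the UCMS mice, Nefh was higher in PV than in PYR neurons in each mouse. The PYR mean count was 0.185 of the PV mean, and the log2 difference PYR minus PV was -2.91 (SE 0.59, limma adjusted p = 0.000134 over all 17638 genes). PV exceeded SST neurons by a log2 difference of 2.80 (SE 0.59, limma adjusted p = 0.000575) and VIP neurons by 4.48 (SE 0.59, limma adjusted p = 1.1e-08). The last value is drawn upward by the VIP libraries at or near 0, since the ratio of mean counts was 10.5, and under other settings it ran from 3.88 to 4.94. The differences among PYR, SST and VIP neurons did not pass the threshold, at -0.11 for PYR minus SST (SE 0.57), 1.57 for PYR minus VIP (SE 0.57) and 1.68 for SST minus VIP (SE 0.57). In control mice, described without a test, PYR minus PV was -2.85 (SE 0.56), PV minus SST 3.04 and PV minus VIP 3.13 on the same scale.

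Ina and Nefm were also highest in PV neurons, with more overlap. Ina, alpha-internexin, averaged 1179 ± 396 normalized counts in PV neurons of UCMS mice (n = 9), while PYR neurons had 622 ± 223, VIP neurons 572 ± 321 and SST neurons 530 ± 100.3. The PV libraries ran from 546 to 1840 with a median of 1113, the PYR libraries from 304 to 1000 (median 613), the SST libraries from 395 to 731 (median 513) and the VIP libraries from 163 to 1218 (median 551). PV values were thus high as a group while each range overlapped them. The log2 differences were -0.96 for PYR minus PV (SE 0.28, limma adjusted p = 0.00835), 1.12 for PV minus SST (SE 0.28, adjusted p = 0.0027) and 1.21 for PV minus VIP (SE 0.28, adjusted p = 0.000486). Without mouse U607 the first of these no longer passed, at -0.80 (adjusted p = 0.0555). In control mice Ina averaged 1210 in PV, 695 in PYR, 497 in SST and 551 in VIP neurons.

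Nefm, the medium chain, averaged 902 ± 537 normalized counts in PV, 545 ± 213 in PYR, 291 ± 119 in SST and 267 ± 109 in VIP neurons of UCMS mice. The PV libraries ran from 278 to 2008 with a median of 690, and the VIP libraries from 130 to 477 with a median of 240. PV exceeded SST by a log2 difference of 1.56 (SE 0.34, limma adjusted p = 0.000512) and VIP by 1.68 (SE 0.34, adjusted p = 7.7e-05), whereas PYR minus PV, at -0.64 (SE 0.34), did not pass (adjusted p = 0.271). PYR exceeded VIP by 1.04 (SE 0.33, adjusted p = 0.0415), a call that was lost without any one of mice U601, U602, U603, U604 and U609 (adjusted p up to 0.143) and with no filter on low values. In control mice the order was the same, with means of 1096 in PV, 656 in PYR, 291 in SST and 269 in VIP neurons.

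Nefl, the light chain, had another order, with PYR and PV neurons high. In UCMS mice it averaged 889 ± 277 normalized counts in PYR, 713 ± 302 in PV, 359 ± 202 in SST and 385 ± 202 in VIP neurons. The PYR libraries ran from 485 to 1474 (median 882), the SST libraries from 94.6 to 839 (median 313) and the VIP libraries from 54.6 to 710 (median 366). PYR exceeded SST by a log2 difference of 1.43 (SE 0.31, limma adjusted p = 0.000387) and VIP by 1.40 (SE 0.31, adjusted p = 0.00077), and was higher than VIP in 10 of 10 mice. PYR minus PV was 0.42 (SE 0.33, adjusted p = 0.518). PV exceeded SST by 1.01 (SE 0.33, adjusted p = 0.0443) and VIP by 0.98 (SE 0.33, adjusted p = 0.0323). The PV minus SST call held in 4 of 9 other settings and in 3 of 10 fits that left out a mouse (it was lost without U601, U603, U604, U605, U607, U609 or U610, with adjusted p up to 0.145). The PV minus VIP call held in 7 of 9 settings and in 4 of 10 such fits (lost without U601, U603, U605, U606, U607 or U610, with adjusted p up to 0.177). In control mice VIP neurons were near PV, at 542 ± 156 against 678 ± 533 normalized counts (PV minus VIP 0.07, SE 0.41), and only SST neurons were low, at 247 ± 151.

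Within a library, the share of Nefh among the normalized counts of the 4 subunits gives the make-up of the set. In UCMS mice it was 31.0% ± 11.7 in PV neurons, 11.4% ± 7.8 in PYR, 16.3% ± 8.3 in SST and 8.29% ± 7.4 in VIP neurons. In control mice it was 30.6% ± 3.1 in PV, with all 10 libraries between 26.9% and 36.7%, and 8.79% ± 4.3 in PYR, 23.5% ± 24.8 in SST and 12.2% ± 8.9 in VIP neurons. One SST control library, that of mouse U10 at 87.3%, widened the SST group. It held 0 normalized counts of Nefm and 1.20 of Ina, so its high share went with low values of other subunits. In that library 10126 genes had reads, against a group median of 13701. The median Nefh share of the SST control libraries was 21.3%. Nefl and Nefm together took 61.8% ± 6.4 in UCMS and 59.9% ± 11.9 in control mice in PYR neurons. The UCMS and control shares were 50.8% ± 17.3 and 54.2% ± 13.8 in VIP neurons. They were 45.6% ± 6.3 and 42.1% ± 18.6 in SST and 40.2% ± 9.4 and 40.0% ± 5.7 in PV neurons. These shares restate the levels above and were not tested separately.

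**Figure D2:**
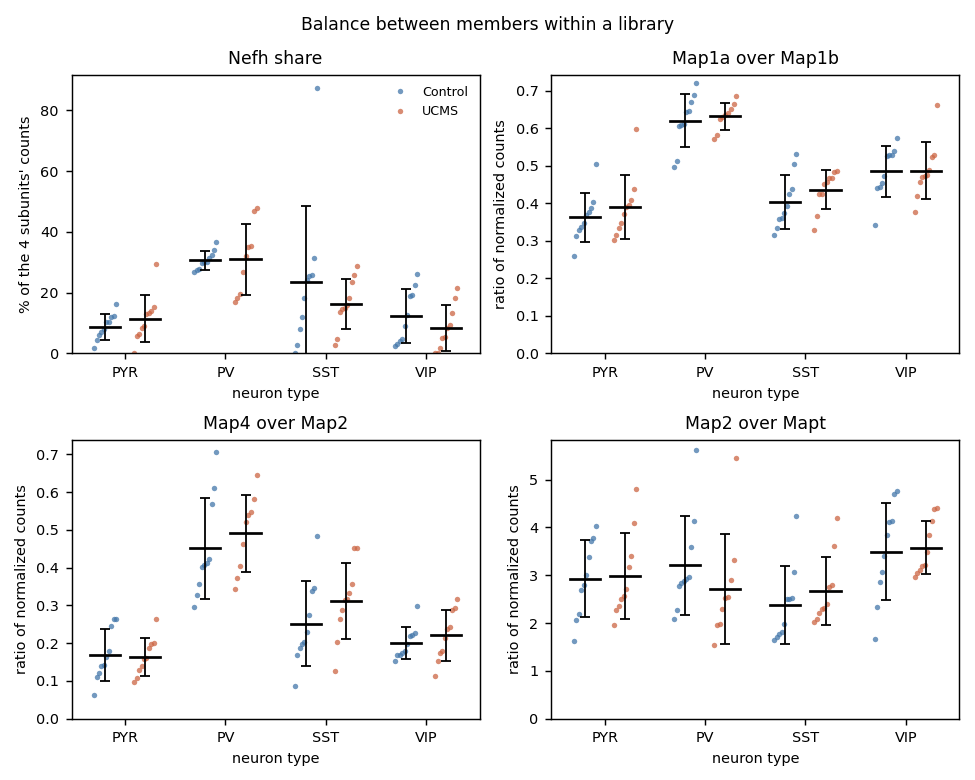
Balance between genes within a library (1 point per library, control blue, UCMS red, bar for the mean, whiskers for the SD, cut at 0), with neuron type on the horizontal axis and, on the vertical axes, the Nefh share of the 4 neurofilament subunits in percent or a ratio of normalized counts. The PV control libraries hold a Nefh share between 26.9% and 36.7%, and the ratio of Map1a to Map1b averages 0.632 in PV neurons of UCMS mice against 0.390 in PYR neurons.

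Map1a, the form of mature neurons, was higher in PV neurons than in each other type. In control mice it averaged 15757 ± 1882 normalized counts in PV, 8646 ± 1235 in PYR, 9240 ± 1530 in SST and 10710 ± 1472 in VIP neurons. In UCMS mice the PV libraries ran from 14696 to 18402 (median 15643), the PYR libraries from 6920 to 12121 (median 8828), the SST libraries from 7482 to 11579 (median 9773) and the VIP libraries from 8864 to 12144 (median 10277). Every PV library of the UCMS mice lay above every library of the other 3 types. The log2 differences were -0.89 for PYR minus PV (SE 0.07, limma adjusted p = 6.6e-27), 0.76 for PV minus SST (SE 0.07, adjusted p = 1.1e-20) and 0.64 for PV minus VIP (SE 0.07, adjusted p = 6.1e-16). PYR was also below VIP, at -0.25 (SE 0.06, adjusted p = 0.00525), though by edgeR on the recovered reads that difference was -0.13 with an adjusted p of 0.563. Neither PYR minus SST (-0.13, SE 0.06) nor SST minus VIP (-0.12, SE 0.06) passed.

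Map1b, its relative, was nearly even. Its UCMS means were 22910 ± 1576 normalized counts in PYR, 25217 ± 2566 in PV, 22185 ± 2056 in SST and 21733 ± 3118 in VIP neurons, and libraries of all 4 types lay between 18146 and 29511. PV exceeded SST by a log2 difference of 0.18 (SE 0.05, limma adjusted p = 0.0304) and VIP by 0.21 (SE 0.05, adjusted p = 0.00268), both small and both reversed by quantile normalization, to -0.10 and -0.17. The call against SST was lost in 7 of 9 other settings and in 6 of 10 fits that left out a mouse (U602, U604, U605, U606, U607 or U610, with adjusted p up to 0.135). The ratio of Map1a to Map1b in UCMS mice was 0.632 ± 0.037 in PV, 0.390 ± 0.085 in PYR, 0.436 ± 0.052 in SST and 0.487 ± 0.076 in VIP neurons, and in control mice 0.620 ± 0.071, 0.363 ± 0.065, 0.403 ± 0.071 and 0.485 ± 0.068.

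**Figure D3:**
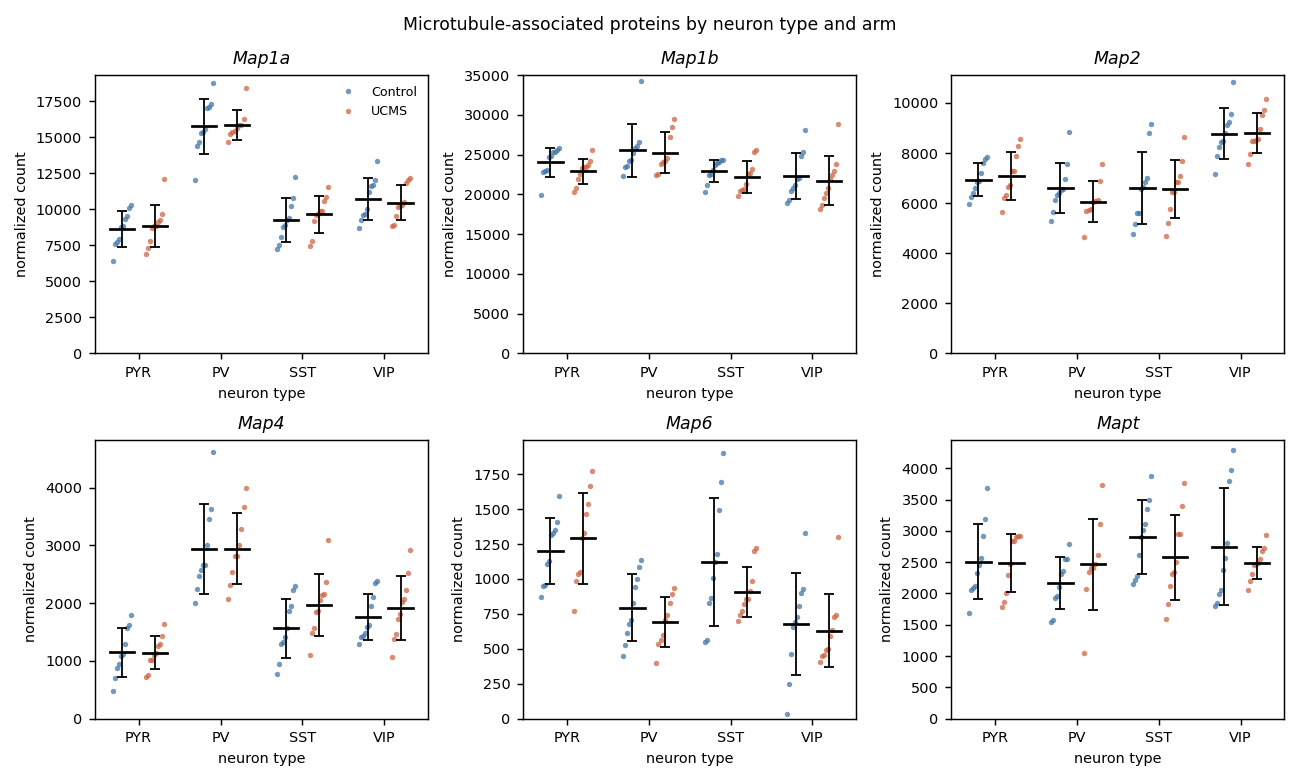
Normalized counts of the 6 microtubule-associated proteins (vertical axes, linear, from 0) by neuron type (horizontal axis), 1 point per library, control in blue and UCMS in red, with the mean (bar) and SD (whiskers). Map1a in PV libraries of UCMS mice runs from 14696 to 18402, above every UCMS library of the other types, while Map1b lies between 18146 and 29511 in all UCMS libraries.

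Map4 differed between PYR neurons and each interneuron type and was highest in PV neurons. In UCMS mice it averaged 2945 ± 620 normalized counts in PV, 1967 ± 544 in SST, 1920 ± 555 in VIP and 1136 ± 286 in PYR neurons. The PV libraries ran from 2078 to 3996 (median 2819) and the PYR libraries from 711 to 1639 (median 1114), with no overlap, while SST (1097 to 3086, median 1959) and VIP (1062 to 2925, median 1917) overlapped both. PYR minus PV was -1.40 (SE 0.16, limma adjusted p = 5.4e-13), PYR minus SST -0.78 (SE 0.16, adjusted p = 8.4e-05) and PYR minus VIP -0.74 (SE 0.16, adjusted p = 0.000318). PV exceeded SST by 0.61 (SE 0.16, adjusted p = 0.00752) and VIP by 0.66 (SE 0.16, adjusted p = 0.00195), and SST and VIP did not differ beyond their spread (0.04, SE 0.16). The PV minus SST call was lost without mouse U605 (0.50, adjusted p = 0.066), by edgeR (adjusted p = 0.053) and with no filter on low values. Control mice had means of 2932 in PV, 1758 in VIP, 1563 in SST and 1147 in PYR neurons.

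Map4 is also made by glia. The summed normalized counts of 8 astrocyte markers in UCMS mice were lowest in the type where Map4 was highest, with 6799 in PV, 7251 in SST, 8295 in PYR and 11416 in VIP libraries. The sums of 8 oligodendrocyte markers averaged 1734 in PV, 3165 in SST, 1610 in PYR and 1251 in VIP libraries. Their part in the levels of Map4 was not tested.

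Map2, the dendritic marker, was highest in VIP neurons. In UCMS mice it averaged 8794 ± 801 normalized counts in VIP, 7082 ± 944 in PYR, 6562 ± 1152 in SST and 6053 ± 810 in PV neurons. The VIP libraries ran from 7573 to 10161 (median 8546), just above the PV libraries (4650 to 7560, median 6062) and overlapping PYR (5658 to 8564, median 6993) and SST (4684 to 8632, median 6637). PV minus VIP was -0.54 (SE 0.08, limma adjusted p = 4.2e-08), SST minus VIP -0.44 (SE 0.08, adjusted p = 1.2e-05) and PYR minus VIP -0.32 (SE 0.08, adjusted p = 0.00311). By edgeR the last was -0.20 with an adjusted p of 0.354. Control mice gave means of 8777 in VIP, 6930 in PYR, 6620 in PV and 6606 in SST neurons.

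Astrocyte markers moved with Map2. Their sums ran from 7796 to 14447 in VIP, 6682 to 10066 in PYR, 5151 to 9445 in SST and 3961 to 8287 in PV libraries of UCMS mice. Of the 8 markers, 4 passed the threshold as higher in VIP than in PYR neurons, 2 than in PV and 1 than in SST. Of all genes, 3.05%, 6.5% and 2.38% passed in those directions. Slc1a2, the main glutamate transporter of astrocytes, made up most of the sum, with 9196 normalized counts in VIP and 5467 in PV libraries, while Gfap, the astrocyte filament, was at 43.0 and 5.24 and Aqp4, the water channel of astrocyte endfeet, at 124 and 98.0. The part of astrocyte RNA in the level of Map2 was not tested.

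Map6 was highest in PYR neurons. In UCMS mice it averaged 1291 ± 326 normalized counts in PYR, 906 ± 181 in SST, 689 ± 180 in PV and 630 ± 263 in VIP neurons. The PYR libraries ran from 773 to 1775 (median 1311), the PV libraries from 397 to 935 (median 707) and the VIP libraries from 407 to 1300 (median 546), so the high PYR libraries lay above every library of both types and the low ones within their ranges. PYR exceeded PV by a log2 difference of 0.94 (SE 0.23, limma adjusted p = 0.00158), in 9 of 9 mice, and VIP by 1.07 (SE 0.23, adjusted p = 0.000237), in 10 of 10 mice. PYR minus SST was 0.49 (SE 0.23, adjusted p = 0.248). In control mice the means were 1201 in PYR, 1119 in SST, 795 in PV and 678 in VIP neurons.

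Mapt, which encodes tau, did not pass in any of the 6 comparisons of types. Its UCMS means were 2484 ± 464 normalized counts in PYR, 2467 ± 725 in PV, 2576 ± 687 in SST and 2486 ± 260 in VIP neurons, and its log2 differences ran from -0.10 (PV minus SST, SE 0.14) to 0.07 (PYR minus PV, SE 0.14). In control mice, without a test, it stood at 2166 ± 419 in PV and 2903 ± 585 in SST neurons, with PV minus SST at -0.42 (SE 0.16).

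Counted over the set, 29 of 60 differences between types passed in UCMS mice, and each of the 29 had the same sign in the control mice. The genes were selected on values of both arms, so that shared sign and the adjusted p-values of the 29 are a description and no independent support. Between PYR and PV neurons, 1 of the 10 genes was higher in PYR (Map6), where 6.58% of all genes passed in that direction, and 4 were higher in PV (Nefh, Ina, Map1a and Map4), where 4.71% did. Between PYR and SST, 1 was higher in PYR (Nefl), against 2.98% of all genes, and 1 in SST (Map4), against 3.28%. Between PYR and VIP, 3 were higher in PYR (Nefl, Nefm and Map6), against 2.27%, and 3 in VIP (Map1a, Map2 and Map4), against 3.05%. PV exceeded SST in 7 genes, against 2.11% of all genes, and SST exceeded PV in 0, against 3.13%, with 7 of 10 at an unadjusted p under 0.05 in either direction. PV exceeded VIP in 7 genes, against 4.48%, and VIP exceeded PV in 1 (Map2), against 6.5%. SST exceeded VIP in 0 genes, against 2.01%, and VIP exceeded SST in 1 (Map2), against 2.38%. For SST above VIP, edgeR gave 0 and DESeq2 gave 1 (Map6), and 3 of the 10 genes had an unadjusted p under 0.05 in either direction. The shares of all genes given here are for adjusted p in 1 direction. They do not apply to the unadjusted counts for PV against SST and SST against VIP.

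The medians over the 10 genes stand beside those over all 17638 genes. They were -0.38 against 0.15 for PYR minus PV, 0.08 against 0.02 for PYR minus SST, 0.17 against 0.00 for PYR minus VIP, 0.69 against -0.13 for PV minus SST, 0.65 against -0.20 for PV minus VIP and 0.04 against -0.03 for SST minus VIP. Since the genes were selected on values of these libraries, the medians describe the set and do not set it apart. The count for PV against SST was 4 without mouse U605 and 4 by edgeR. Over all 17638 genes, edgeR called 618 for that pair and limma 925.

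**Figure D4:**
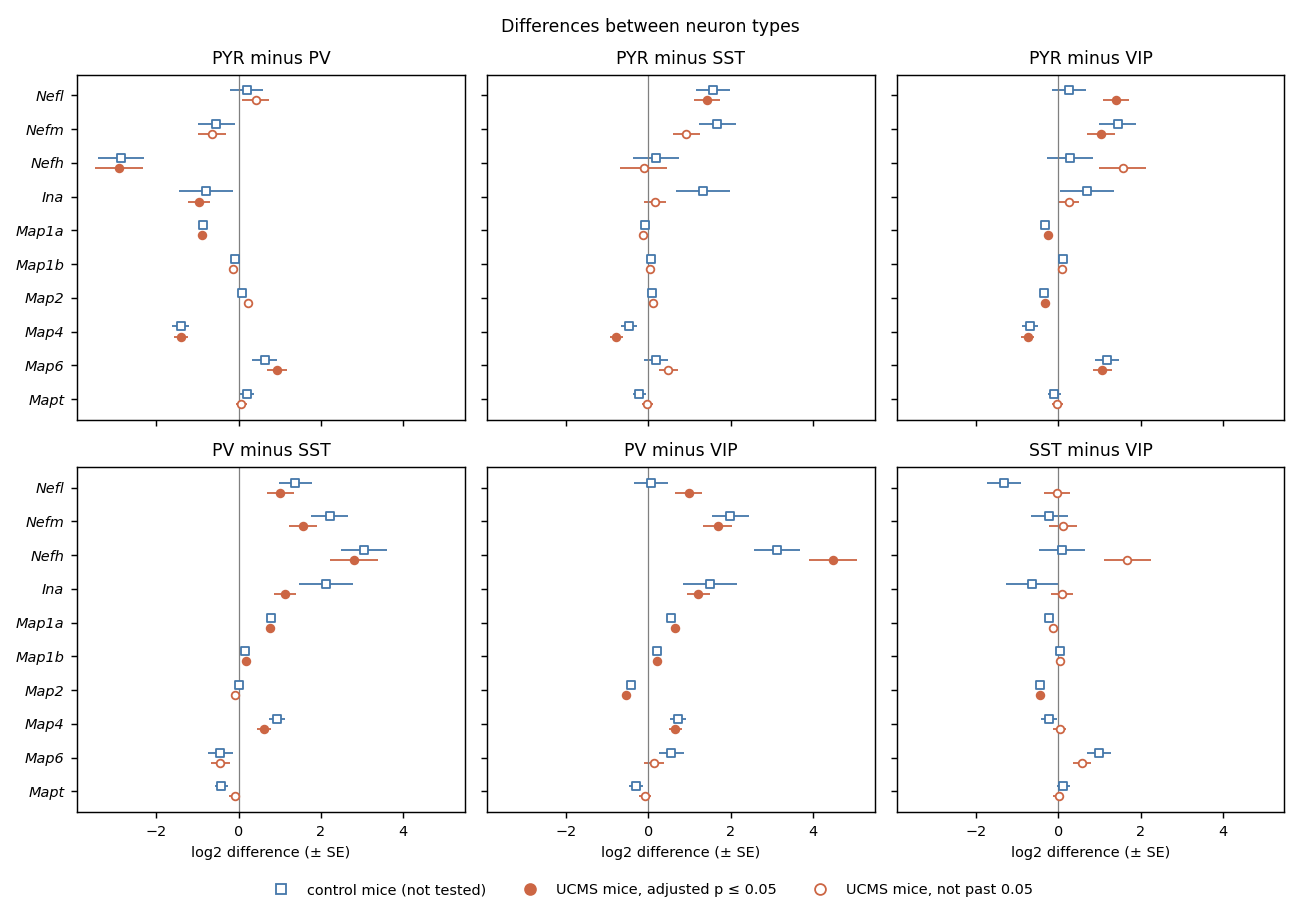
Log2 differences between neuron types (horizontal axis, ± SE) for the 10 genes, 1 panel per pair, with control mice as blue squares (not tested) and UCMS mice as circles, filled where the adjusted p was at most 0.05. Nefh, Ina, Map1a and Map4 lie on the PV side of 0 against each other type, Map6 on the PYR side in the first row, and Mapt near 0 in UCMS mice.

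Stress was compared with control within each neuron type, to ask which genes differ between stressed and unstressed mice. None of the 10 genes passed in any type, which does not show that their levels were equal, since the SE of the 40 log2 changes ran from 0.05 to 0.87. By limma the count was 0 of 10 in PYR neurons, where 0.0808% of all genes passed (13 of 16092), and 0 of 10 in PV, SST and VIP neurons, where 0% passed (0 of 16847, 17108 and 19451). At an unadjusted p under 0.05 it was 1 gene in PYR (Nefl), 0 in PV, 1 in SST (Map4) and 0 in VIP neurons, and edgeR and DESeq2 on the recovered reads called 0 in each type. Over all genes, limma had 630 of 16847 in PV, 979 of 17108 in SST and 1001 of 19451 in VIP neurons at an unadjusted p under 0.05. Counts of 0 or 1 in 10 do not set the members apart from all genes. By edgeR 0, 1 and 885 of all genes were called in PV, SST and VIP neurons, and by DESeq2 56, 54 and 108. For the mean effect over the types, with 1 value per mouse, the limma count was 0 of 10 (0% of all 17427 genes, and 0 of the 10 at an unadjusted p under 0.05). The values of the UCMS libraries overlapped those of the controls in all 40 comparisons of a gene in a type. Overlap was not counted over all genes, so it does not set these genes apart. All-gene median log2 changes were 0.10 in PYR, 0.05 in PV, 0.15 in SST and 0.17 in VIP neurons, against 0.03, -0.02, 0.21 and -0.01 for the 10 genes.

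Nefl in PYR neurons had the smallest unadjusted p of the 40. The control libraries ran from 361 to 844 normalized counts with a median of 679, and the UCMS libraries from 485 to 1474 with a median of 882. Of the 10 UCMS libraries, 8 lay above the control median and 6 above the highest control library, while the other 4 fell within the control range. The log2 change was 0.45 (SE 0.22, unadjusted p = 0.0424, limma adjusted p = 0.767). Of all reads, 64.2% ± 2.3 fell on protein-coding genes in these UCMS libraries and 58.7% ± 3.9 in the controls, and with that percentage as a covariate the log2 change of Nefl was 0.40 (limma adjusted p = 0.998). Nefl was at 0.20 in PV (SE 0.33), 0.59 in SST (SE 0.47) and -0.68 in VIP neurons (SE 0.42), so its value was positive in 3 types and negative in VIP, and the difference of the effect between the types did not pass (unadjusted p = 0.0654, limma adjusted p = 0.9997).

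Map4 in SST neurons came next. Its control libraries ran from 767 to 2295 normalized counts (median 1489) and its UCMS libraries from 1097 to 3086 (median 1959), with 8 of 10 above the control median. The log2 change was 0.36 (SE 0.18, unadjusted p = 0.0433, limma adjusted p = 0.856). The oligodendrocyte marker sum also differed there, with 3165 ± 2027 in UCMS and 2343 ± 967 in control SST libraries, and with glial markers as a covariate the log2 change of Map4 was 0.38 (limma adjusted p = 0.968). In the other types Map4 stood at 0.04 in PYR (SE 0.18), 0.02 in PV (SE 0.15) and 0.10 in VIP neurons (SE 0.20).

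The largest fitted changes belonged to genes with libraries at or near 0. Ina in SST neurons had a log2 change of 1.00 (SE 0.75, unadjusted p = 0.198), while its mean counts were 530 in UCMS and 497 in control mice. The control libraries of mice U10 and U4 were low, at 1.20 and 34.1, and the log2 change was 0.37 without the first and 0.69 without the second. In these libraries 10126 and 10669 genes had reads, against a group median of 13701. The part of this in the values of Ina was not tested. Nefh in VIP neurons had -1.20 (SE 0.87, unadjusted p = 0.168), with means of 124 in UCMS and 180 in control mice and 2 UCMS libraries at 0, where a count of 0 allows up to 3 reads. The abundant genes were held more tightly. The log2 values of Map1a lay between -0.03 and 0.07 over the 4 types (SE 0.07 to 0.08), those of Map1b between -0.07 and -0.02 (SE 0.05) and those of Map2 between -0.13 and 0.03 (SE 0.08 to 0.10), none of them past the threshold. Quantile normalization turned the value of Map1b in PYR neurons from -0.07 to 0.16.

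**Figure D5:**
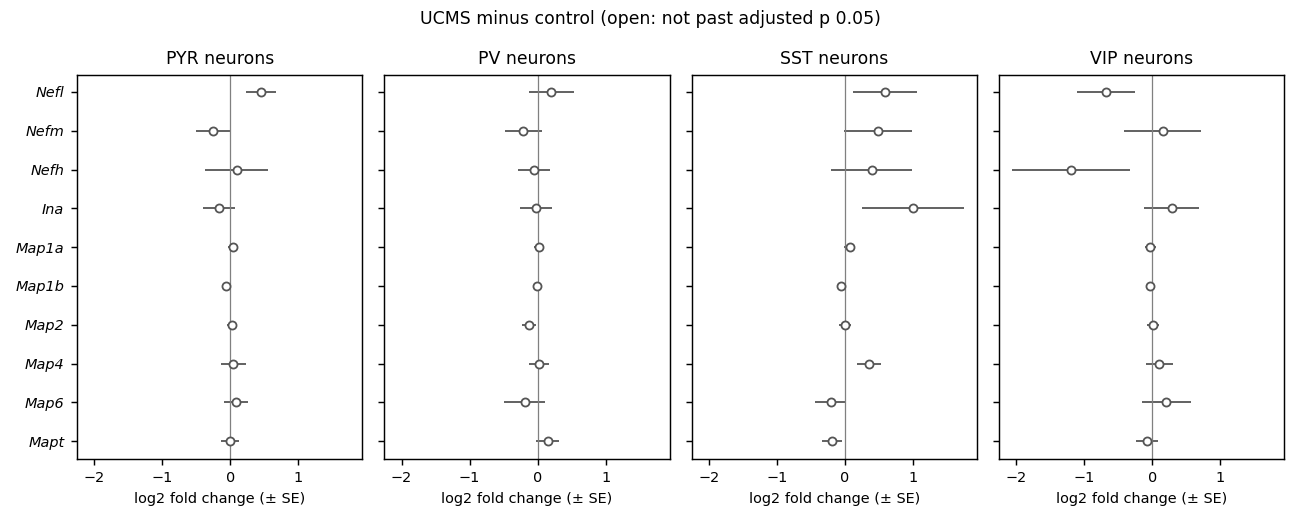
Log2 change of the 10 genes in UCMS against control mice (horizontal axis, ± SE) in each neuron type, with open circles since no value passed an adjusted p of 0.05. Map1a, Map1b and Map2 sit within 0.13 of 0 in each type with short error bars, and Nefh in VIP (-1.20) and Ina in SST neurons (1.00) lie farthest out with the longest ones.

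Whether the effect of stress differed between the neuron types was tested with 3 interaction terms and the mouse as a block. The count was 0 of the 10 genes and 0% of all 17427, with 0 of the 10 at an unadjusted p under 0.05. By edgeR and DESeq2 it was likewise 0 of the 10. Nefl had the smallest unadjusted p (0.0654), followed by Nefh (0.191).

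Other genes of the cytoskeleton were read from 7 lists: other intermediate filament genes, tubulins, other proteins that bind microtubules or their tips, stathmins and severing enzymes, kinases and phosphatases that act on tau, these proteins and neurofilaments, tubulin-modifying enzymes and motors of axonal transport. In the stress comparisons, 0 genes of any list passed in any type or in the mean over types by limma. Between types in UCMS mice, 6 of 16 tubulins were higher in PYR than in PV neurons and 0 lower, where 6.58% and 4.71% of all genes passed, and their median was 0.30 against 0.15 for all genes. Between PYR and VIP neurons 5 were higher in PYR and 0 in VIP (2.27% and 3.05% of all genes), and between PYR and SST 1 was higher in PYR and 0 in SST (2.98% and 3.28%). Of 15 genes for motors of axonal transport, which are kinesins and subunits of dynein and dynactin, 3 were higher in PYR than in PV neurons (Dync1h1, Klc1 and Kif1b) and 4 lower (Kif1a, Klc2, Kif5a and Kif5c), beside the same 6.58% and 4.71%. These 7 are named because they passed, and the counts describe lists chosen with earlier results of these data known, without setting a list apart from other genes.

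Within the lists, the largest differences past the threshold belonged to the following genes, whose calls were not examined under the other settings. Tuba8, an alpha-tubulin, was higher in PV than in VIP neurons by a log2 difference of 2.90 (limma adjusted p = 0.0185), and Tubb4b, a beta-tubulin, higher in PYR than in VIP by 1.23 (adjusted p = 0.000214). Vash2, which removes the end tyrosine of alpha-tubulin, was higher in PV than in VIP by 2.81 (adjusted p = 0.0246), and Ttll5, a polyglutamylase of tubulin, by 1.15 (adjusted p = 0.00399). Both enzymes were also lower in PYR than in PV, by -2.60 and -1.10. Tuba8 and Vash2 varied widely between libraries, with SEs of 0.92 and 0.93 for stress in PV neurons, beside 0.29 for Ttll5.

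Among the filament genes and their regulators, Krt222 was higher in PV than in VIP by 1.68 (limma adjusted p = 0.00234) and Lmna, a nuclear lamin, higher in PYR than in PV by 1.62 (adjusted p = 0.0181). Ttbk2, a kinase of tau and tubulin, was lower in PYR than in PV neurons by -1.16 (adjusted p = 0.000397), and Ppp2r2b, a regulatory subunit of protein phosphatase 2A, higher in PV than in VIP by 0.99 (adjusted p = 0.000246). Stmn3 and Stmn4, stathmins that destabilise microtubules, were higher in PV than in VIP by 0.97 and in PYR than in VIP by 1.02 (adjusted p = 7.7e-06 and 0.0303). The kinesin light chain Klc2 was higher in PV than in VIP by 1.06 (adjusted p = 8.2e-06), the kinesin Kif21a lower in PV than in SST by -0.74 (adjusted p = 1.9e-08), Map9 higher in PYR than in PV by 1.06 (adjusted p = 0.00119) and Camsap3, which binds the minus ends of microtubules, lower in PV than in VIP by -1.36 (adjusted p = 0.0402).

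The genes whose levels ran most like each member were found by Pearson's r of log2 values over the 79 libraries, among 8158 genes, as a description, since libraries share types, mice and depth. For Nefh they were Ndrg4 (r = 0.73), Lynx1 (0.71), which modulates nicotinic receptors, and Pvalb itself (0.64). After group means were removed these fell to 0.44, 0.34 and 0.19. Nefm and Ina shared their first gene, Cabp1, a neuronal calcium-binding protein, at 0.73 and 0.74 and at 0.67 and 0.68 within groups. For Map1a the first was Sparcl1, an extracellular matrix protein (0.82, within groups 0.27), and for Map4 the first was Btbd11 (0.74, within groups 0.31) and the next the potassium channel gene Kcnc1 (0.71, within groups 0.02). Map1b was most like Kif1a, a kinesin of axonal transport (0.56, within groups 0.46), Map2 most like Nbea (0.64, within groups 0.13), Map6 most like Prkag2 (0.64, within groups 0.54), Nefl most like Asap1 (0.58, within groups 0.30) and Mapt most like Pianp, with the lowest r of the 10 (0.38, within groups 0.40).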

How the data were processed

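RNA of 79 laser-cut samples from 20 mice was made into stranded libraries with a kit for total RNA in picogram amounts, per the labels' protocols. The deposited values are a signal, in which the authors scaled the reads on a gene by 1 factor per library (normalized counts). The submitters' processing notes name the build GRCm38 (mm10) and the tools HISAT2, SAMtools 1.3 and DESeq2. Not given in the sources used here are the read counter, the annotation and the use of strand. When divided by what 1 read is worth, 100% of values came out whole within 0.001 reads. These recovered reads gave the totals of 3642579 to 13529571 per library and were used in edgeR (4.0.16) and DESeq2 (1.42.0). The limit of 3 reads for a count of 0 covers counting error only. Gene places came from GENCODE M21, which 38636 of the 38879 identifiers matched.

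The main tests used limma (3.58.1, R 4.3.3), with trend and robust empirical Bayes, on log2(normalized count + 4). Genes with a mean of at least 10 over the libraries fitted were tested, and p-values were adjusted by Benjamini-Hochberg over all of them, with a threshold of 0.05. All 10 members passed that filter in each comparison. The added 4 shrinks differences of low genes. Single libraries at or near 0 can instead enlarge a difference beside the ratio of means, as for Nefh in VIP neurons. Stress was compared within each type over mice, over types with 1 mean per mouse, and between types by a moderated F-test with the mouse as a block. Types were compared in the 39 UCMS libraries with the mouse as a fixed replicate block, since the same number is the same animal in each type. The correlation within a mouse, as a consensus over genes, was 0.0104. The labels do not name litters or dates, so no batch could be examined.

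The members and the gene lists were chosen with earlier results of these data known. All 10 members are named in every comparison. From each list the text names those past the threshold under stress and up to 2 with the largest difference past it over the 6 pairs of types. For each member, likeness was ranked among genes with a mean of at least 100, leaving out unnamed gene models, and up to 3 are named. Each fit was also run on simulated data, with the spread taken over all 79 libraries, which includes differences between types. It missed most of the 2-fold changes put in. Most 4-fold changes were missed too, except for the mean effect of stress over the types. A gene that did not pass may therefore still differ. The alternatives were quantile normalization, a filter at a mean of 50 or none, a pseudocount of 1 or 16, scaling to reads on protein-coding genes, edgeR, DESeq2, covariates, other treatments of the mouse, and leaving out each library or mouse.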

Additional observations from a re-analysis of the deposited data

Results flagged for a closer look

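For each gene, type and arm, the library farthest out was compared with the rest of its group by Dixon's test. Of 80 groups, 11 held a library past the 95% limit, where chance gives about 1 in 20 for independent groups. These groups reuse the same 79 libraries and are not independent. Low libraries were Nefl in PV UCMS mouse U602 (134 normalized counts), Nefm in SST control U10 (0), Nefh in PYR control U7 (26.0) and PYR UCMS U602 (6.82), Ina in VIP control U4 (12.1), Map1b in PYR control U6 (19929), Map6 in VIP control U6 (35.9) and Mapt in PV UCMS U606 (1055). High libraries were Map1a in PV UCMS U605 (18402), Map1b in PV control U3 (34263) and Map6 in VIP UCMS U603 (1300). Few genes had reads in PV control U3 (9033), VIP control U4 (10015), SST control U10 (10126) and VIP control U6 (10827). The median over all libraries was 14066, and VIP UCMS U603 (15820) and PV UCMS U606 (16556) lay above it. The high Map1a library lies on the same side as its group, and PV minus SST for Map1a ran from 0.72 to 0.79 over the fits that left out a mouse. No gene's effect of stress differed between types by the test of that difference.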

How the results depend on the processing

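No member passed under stress in any alternative that was run, nor within a type with any library left out (0 in each, so the range was 0 to 0). The mean over types and the test between types were not refitted with a library left out. Of the 9 stress values with an unadjusted p under 0.2, 2 changed sign, both Map1b under quantile normalization (0.16 in PYR neurons and 0.0525 for the mean over types). Of the other 41 stress values, 17 changed sign under some alternative, the largest of them 0.49 in the main fit. For the types in UCMS mice, the 29 called differences kept direction and call in 241 of 261 refits under other settings, lost the call in 18 and changed sign in 2 (Map1b, -0.10 for PV minus SST and -0.17 for PV minus VIP, under quantile normalization). Quantile normalization moved the median of all genes by 0.16 for PV minus VIP (from -0.20 to -0.05) and by -0.10 for stress in VIP neurons. For PV minus SST that median moved upward by 0.09, while Map1b moved downward, from 0.18 to -0.10. For PV minus VIP Map1b likewise moved against the median, from 0.21 to -0.17. The count for PV against SST fell from 7 to 4 with no filter on low values and to 4 by edgeR. Calls over all genes for that pair also fell, from 925 of 17638 to 697 of 36589 and to 618 of 17638. The member count for SST against VIP rose from 1 to 2 under quantile normalization and to 2 by DESeq2, and that for PYR against SST from 2 to 4 by DESeq2. With each mouse left out in turn the counts ran from 4 to 7 for PV against SST, 1 to 2 for SST against VIP, 7 to 8 for PV against VIP, 5 to 7 for PYR against PV, 2 to 3 for PYR against SST and 5 to 7 for PYR against VIP. Without the replicate block the counts were 5 for PYR against PV, 2 for PYR against SST, 6 for PYR against VIP, 5 for PV against SST, 8 for PV against VIP and 1 for SST against VIP, and 0 for the stress effect between types. Over all genes, stress in PYR neurons gave 13 by limma, 27 by edgeR, 39 by DESeq2, 7 with a pseudocount of 1, 5 with genes detected as a covariate, and 0 with the protein-coding share as a covariate, with no filter or with a mean of at least 50. DESeq2 called more genes between types than limma, 2038 against 925 for PV against SST, 3326 against 1937 for PV against VIP, 3275 against 1991 for PYR against PV, 2018 against 1105 for PYR against SST, 1751 against 938 for PYR against VIP and 1574 against 775 for SST against VIP. The cause of these changes was not tested.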
